A study of Homo sapiens with 12 samples.

Results

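NF-kB is a family of transcription factors built as dimers of the subunits that NFKB1, NFKB2, RELA, RELB and REL encode. In resting cells inhibitor proteins such as IkBα (NFKBIA) hold the dimers in the cytoplasm, and kinases that respond to cytokines such as TNF and interleukin-1 release them, so that they enter the nucleus and bind kappaB sites. Several genes they switch on feed back on the pathway, and such genes are commonly expressed in inflamed epithelium, in ovarian cancer cells and in senescent cells. The 10 genes described here are the 5 subunits, the feedback inhibitors NFKBIA and TNFAIP3 (A20, a ubiquitin-editing enzyme), the anti-apoptotic gene BIRC3 (cIAP2, a ubiquitin ligase), the adaptor TRAF1 and the adhesion molecule ICAM1. They were chosen by gene symbol, all 10 were found among the 58735 genes of the count table, and all 10 were among the 16891 genes that passed the filter on low counts.

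RNA-seq was performed on the human ovarian cancer line ES2, engineered as FDX2-iKO cells, in 4 conditions with 3 libraries each. All 12 libraries came from cells that carry the tetracycline-controlled regulators tTS and rtTA and a Doxy-induced FDX2-HA with silent mutations that resist editing. In the same cells the endogenous FDX2 gene was knocked out with Cas9. With Doxy (20% O2 + Doxy, 3% O2 + Doxy) the cells express FDX2-HA, and without Doxy (20% O2 wo Doxy, 3% O2 wo Doxy) they lose FDX2, a mitochondrial ferredoxin needed to build iron-sulfur clusters. Cells at 20% O2 were cultured for 6 days, and cells at 3% O2 were kept for 4 days at 20% O2 and then for 3 days at 3% O2, so oxygen and total time in culture differ together and cannot be told apart. The absence of the drug and the loss of FDX2 likewise cannot be told apart, and the cells are a clone grown from a single edited cell (clone 1 unless stated otherwise, and no other is named for RNA-seq). Replicates are labelled as biological, and what separated them is not stated further.

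Totals lay between 24958386 and 34313637 counts per library. FDX2 itself did not reach the filter's minimum. It had 5, 2 and 6 at 20% O2 + Doxy, 9, 13 and 4 at 20% O2 wo Doxy, 2, 4 and 12 at 3% O2 + Doxy and 7, 7 and 5 counts at 3% O2 wo Doxy. These counts were not higher with Doxy and overlapped between the conditions, so they do not show the labelled loss of FDX2. Within these data the direction of every comparison of FDX2 loss rests on the labels. The authors reported loss of FDX2 protein after Doxy withdrawal in the FDX2-iKO clones by Western blot. Why the FDX2 counts were low with Doxy was not tested. The labelled line was checked on markers: KRT7, KRT8, KRT18 and PAX8 were at 1 CPM or more in all 12 libraries (CPM, counts relative to the TMM-scaled total of a library), as were the 4 mesenchymal markers, whereas MUC16 was at 0 and EPCAM reached at most 3 counts. Leukocytes are a usual source of NF-kB target RNA, and the 6 leukocyte markers summed to between 0.0639 and 0.523 CPM, with MS4A1 at 0 in every library. Of the 5 endothelial markers, PECAM1, VWF and TEK stayed at or below 0.312 CPM, while CDH5 lay between 22.1 and 51.4 CPM and KDR between 1.66 and 3.01 CPM. The summed endothelial list was 24.1 to 30.3 CPM at 20% O2 + Doxy, 28.7 to 29.9 at 20% O2 wo Doxy, 31.7 to 39.3 at 3% O2 + Doxy and 43.2 to 54.6 at 3% O2 wo Doxy, and its part in the results was not tested. The library 20% O2 + Doxy replicate 1 and the library 3% O2 + Doxy replicate 3 stood apart from the others of their condition. Their log2 levels rose with the GC content of the transcripts by 0.177 and 0.165 per 10 percentage points of GC, whereas the other 10 libraries lay between −0.124 and 0.094. The library 3% O2 wo Doxy replicate 1 also differed from the others of its condition, with a mean chi-square per gene of 34.5 and 31.6 against them and 8.8 between them. Leaving it out changed the call of REL alone among the 10 genes, as given below.

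The start regions of these genes are shown because kappaB sites are where the subunits bind. RefSeq promoter windows (GRCh38.p14, 250 bases before to 50 after a start site) were at hand for 9 members, not for RELB, with 15 windows in all. The kappaB consensus, searched on both strands, was in a window of 6 of the 9 members (7 of 15 windows), and it was in 11.3% of all 35116 windows. A plainer form, GGG and TTCC separated by 3 free bases, whose matches largely overlap those of the consensus, was in windows of the same number of members, and in 6.52% of all windows. Capitals mark the bases that match either form, read 5′ to 3′ on the gene's own strand. The first sequences are the upstream region of NFKBIA (chr14:35404750-35404999, minus strand) and that of BIRC3 as far as the start of the gene model (chr11:102317234-102317449, plus strand):
NFKBIA: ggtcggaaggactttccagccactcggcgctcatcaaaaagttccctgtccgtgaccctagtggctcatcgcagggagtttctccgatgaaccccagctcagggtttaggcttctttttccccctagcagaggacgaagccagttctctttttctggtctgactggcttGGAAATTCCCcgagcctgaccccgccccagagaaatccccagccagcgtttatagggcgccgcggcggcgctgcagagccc
BIRC3: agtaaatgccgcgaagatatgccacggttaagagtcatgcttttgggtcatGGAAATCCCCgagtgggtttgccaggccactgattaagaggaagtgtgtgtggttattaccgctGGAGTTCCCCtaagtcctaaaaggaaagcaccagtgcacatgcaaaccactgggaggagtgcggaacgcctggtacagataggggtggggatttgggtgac

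For the other members with a match, 30 bases around it are given to set the matched bases side by side. They lie at chr6:137867188-137867217 (TNFAIP3), chr4:102501300-102501329 (NFKB1) and chr2:60881518-60881547 (REL). Those of NFKB2, a to d, lie at chr10:102394462-102394491, chr10:102394490-102394519, chr10:102395519-102395548 and chr10:102395674-102395703. All of these genes are on the plus strand. The NFKB2 stretches precede start sites that lie 468 bases (a, b) and 1595 bases (c, d) inside the GENCODE gene model, and that of TNFAIP3 begins at the model's first base:
TNFAIP3: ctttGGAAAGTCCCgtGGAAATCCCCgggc
NFKB1: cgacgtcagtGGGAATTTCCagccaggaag
REL: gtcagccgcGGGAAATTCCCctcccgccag
NFKB2 a: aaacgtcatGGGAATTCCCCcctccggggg
NFKB2 b: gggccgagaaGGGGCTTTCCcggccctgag
NFKB2 c: aacccccaccGGGGCTTCCCggattctcct
NFKB2 d: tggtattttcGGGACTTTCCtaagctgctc

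TNFAIP3 holds a pair of matches separated by 2 bases, and REL and NFKB2 a each hold a pair that overlap. RELA, TRAF1 and ICAM1 had no match, which says only that these letters are not in their windows. The ICAM1 window holds tggaaattcc, which differs from both forms only at its first base and was not counted. The matches are a description of sequence and not evidence of binding. For FDX2 loss at 20% O2, given below, NFKB2, NFKBIA, TNFAIP3 and BIRC3 have a match and rose. NFKB1 has a match and fell, and REL has one and was not called. TRAF1 and ICAM1 have none in these windows and rose, and RELA has none and was not called. The ICAM1 start site lies 285 bases from the start of the gene model, and those of TRAF1 lie 2, 2377 and 14590 bases from it. Whether a match goes with a change was not tested.

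Among the subunits, RELA, which carries the main transactivation domain of the classical dimer, had the highest RNA level per length in every condition. At 20% O2 + Doxy it stood at 25.4 ± 4.16 RPKM (CPM per kilobase of exon, SD, n = 3), followed by NFKB1 at 10.4 ± 0.306, NFKB2 at 6.42 ± 1.14, RELB at 1.92 ± 0.465 and REL at 0.252 ± 0.0317. On the same scale NFKBIA stood at 8.73 ± 0.52, ICAM1 at 6.30 ± 1.16, TNFAIP3 at 1.79 ± 0.30, BIRC3 at 1.02 ± 0.0571 and TRAF1 at 0.111 ± 0.0219. NFKB2 and ICAM1 did not differ beyond their spread, nor did RELB and TNFAIP3. Of REL's exon bases, 43.3% also belong to AC010733.2 on the same strand, so its level and its changes are uncertain.

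**Figure D1:**
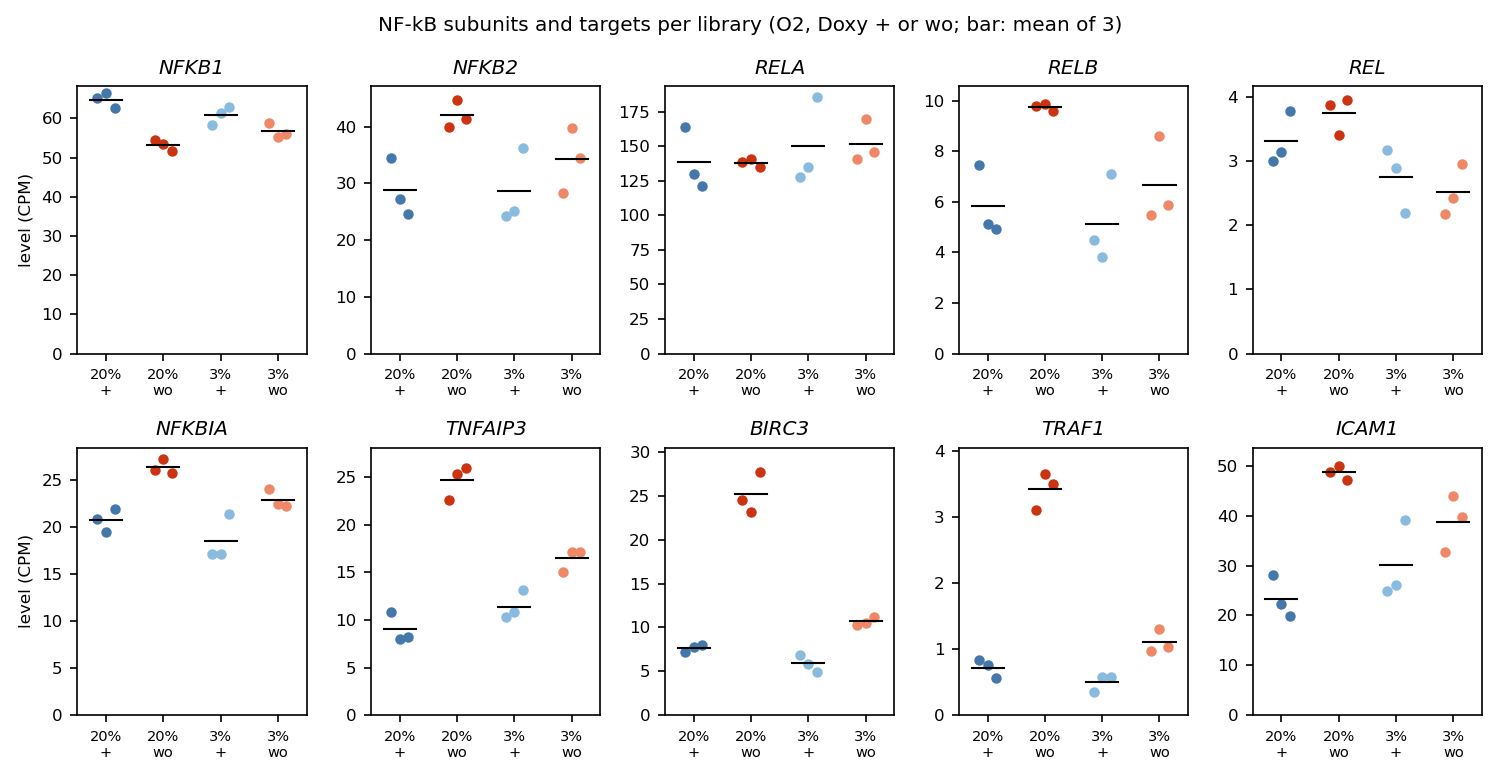
Level in CPM (y axis, from 0) of each of the 10 genes in the 12 libraries, by condition (x axis), with points for single libraries and a bar for the mean of 3. BIRC3 and TRAF1 were highest in the 3 libraries of 20% O2 wo Doxy (at least 23.2 and 3.11 CPM) and RELA overlapped between all conditions.

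FDX2 loss at 20% O2 raised 7 of the 10 genes and lowered 1. TRAF1, BIRC3, TNFAIP3 and ICAM1 rose most, by 2.09-fold to 4.77-fold, and RELB, NFKB2 and NFKBIA rose by 1.27-fold to 1.68-fold. NFKB1 fell, and RELA and REL were not called. In this comparison 35.3% of all tested genes were called (edgeR's quasi-likelihood test, Benjamini-Hochberg adjusted p under 0.05), 17.6% higher and 17.7% lower. The median log2 fold change was 0.65 over the 10 genes and 0.01 over all tested genes.

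TRAF1, a signalling adaptor that binds TNF receptor-associated TRAF2 and the cIAP proteins, was at 0.831, 0.761 and 0.558 CPM with Doxy and at 3.11, 3.66 and 3.51 without. Every library without Doxy was above every library with it. Its log2 fold change was 2.26 (SE 0.231, edgeR adjusted p = 3.06e-05), on counts of 19 to 26 with Doxy and 97 to 116 without. BIRC3 was at 7.16, 7.75 and 7.99 CPM with Doxy and at 24.5, 23.2 and 27.8 without. Its groups did not overlap either, and its log2 fold change of 1.72 (SE 0.112, edgeR adjusted p = 1.39e-06) had the smallest adjusted p of the 10. BIRC2 (cIAP1), the paralog that starts 7807 bases after the end of BIRC3 on chromosome 11, did not follow: it was at 525 ± 46.9 CPM with Doxy and 508 ± 16.2 without (SD, n = 3; log2 fold change −0.05, edgeR adjusted p = 0.64).

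TNFAIP3 was at 10.8, 8.04 and 8.25 CPM with Doxy and at 22.6, 25.4 and 26.0 without, again with no overlap. Its log2 fold change was 1.45 (SE 0.127, edgeR adjusted p = 9.76e-06). NFKBIA, the other feedback inhibitor and a classic early target, was at 20.8, 19.4 and 21.9 CPM with Doxy and at 26.0, 27.2 and 25.7 without. Although its groups did not overlap, its change was the smallest of the 7 that rose, at 0.34 on the log2 scale (SE 0.0855, edgeR adjusted p = 0.00939).

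ICAM1, which binds leukocyte integrins, was at 28.1, 22.2 and 19.8 CPM with Doxy and at 48.9, 50.1 and 47.3 without. The libraries without Doxy were all higher, with a log2 fold change of 1.06 (SE 0.178, edgeR adjusted p = 0.000914). ICAM1 (chromosome 19, 10270835 to 10286615, GRCh38) lies 23429 bases from the edited FDX2 gene, and all 12 libraries carry the edit. Of its exon bases, 23.6% overlap genes on the opposite strand, and the strand setting of the counting is not stated. The neighbours of ICAM1 were named after their values were seen. At 20% O2, ICAM5 was at 22.2 CPM with Doxy and 22.3 without. MRPL4 (log2 fold change −0.56, edgeR adjusted p = 0.0423) and RAVER1 (−0.84, edgeR adjusted p = 0.0303) fell, and ICAM3 (0.02) and ZGLP1 (0.27) were not called. At 3% O2, ICAM1 (0.36), ICAM5 (0.39), ICAM3 (0.35), ZGLP1 (0.18), MRPL4 (−0.02) and RAVER1 (−0.17) were all not called. The part of the locus in the change of ICAM1 was not tested.

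NFKB2, whose p100 product is processed to the p52 subunit of the alternative pathway, was at 34.5, 27.2 and 24.6 CPM with Doxy and at 39.9, 44.7 and 41.3 without. RELB, the usual partner of p52, was at 7.44, 5.11 and 4.91 CPM with Doxy and at 9.78, 9.86 and 9.61 without. In both genes the library with Doxy nearest to the others was 20% O2 + Doxy replicate 1, which stands apart on GC content, and both genes are GC-rich (62.4% and 65.4%). The log2 fold changes were 0.55 (SE 0.172, edgeR adjusted p = 0.0297) for NFKB2 and 0.74 (SE 0.242, edgeR adjusted p = 0.0336) for RELB. NFKB2 lost its call without 20% O2 + Doxy replicate 2 or 3 or without 20% O2 wo Doxy replicate 2 or 3 (edgeR adjusted p up to 0.105). RELB lost its call without any of those 4 libraries or without 20% O2 wo Doxy replicate 1 (edgeR adjusted p up to 0.112). After a correction for GC content, added after the data were seen, their log2 fold changes were 0.75 (edgeR adjusted p = 4.45e-06) and 1.02 (edgeR adjusted p = 3.13e-05).

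NFKB1, the precursor of p50, went the other way. It was at 65.3, 66.5 and 62.7 CPM with Doxy and at 54.6, 53.4 and 51.8 without, and fell by 0.28 on the log2 scale (SE 0.0505, edgeR adjusted p = 0.00137). The groups did not overlap. RELA was at 139 ± 22.7 CPM with Doxy and 138 ± 2.81 without (SD, n = 3; edgeR adjusted p = 0.996), and REL at 3.31 ± 0.418 and 3.75 ± 0.297 (log2 fold change 0.18, edgeR adjusted p = 0.459).

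The make-up of the 5 subunit RNAs per length moved accordingly. NFKB2 took 15.1%, 14.3% and 13.9% of the summed subunit RPKM with Doxy and 19.1%, 20.9% and 20.2% without, and RELB took 4.29% ± 0.466 and 6.88% ± 0.0775 (SD, n = 3). NFKB1 took 23.6% ± 2.69 with Doxy and 18.2% ± 0.463 without, and its libraries did not overlap. RELA stayed the largest share, at 57.1% ± 1.74 and 54.2% ± 0.309. With 3 libraries against 3 an exact permutation test cannot go below 0.10, so no test of the shares is given.

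FDX2 loss at 3% O2 raised 3 of the 10 genes, TRAF1, BIRC3 and TNFAIP3, by 1.44-fold to 2.18-fold, and lowered none. Of all tested genes, 7.31% were called in this comparison, 4.2% higher and 3.11% lower. The median log2 fold change was 0.33 over the 10 genes and 0.04 over all tested genes.

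BIRC3 was at 6.89, 5.88 and 4.94 CPM at 3% O2 + Doxy and at 10.3, 10.5 and 11.2 at 3% O2 wo Doxy, without overlap (log2 fold change 0.86, SE 0.115, edgeR adjusted p = 0.00167). TRAF1 was at 0.356, 0.573 and 0.582 CPM with Doxy and at 0.965, 1.31 and 1.03 without, also without overlap (log2 fold change 1.12, SE 0.241, edgeR adjusted p = 0.0184). It rests on counts of 11 to 33. TNFAIP3 was at 10.3, 10.8 and 13.2 CPM with Doxy and at 15.1, 17.2 and 17.2 without, and the lowest library without Doxy was above the highest with it (log2 fold change 0.53, SE 0.127, edgeR adjusted p = 0.0287).

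NFKBIA had a log2 fold change of 0.30 at 3% O2, near its value at 20% O2, and did not pass (SE 0.0865, edgeR adjusted p = 0.059), although its levels of 17.1, 17.1 and 21.3 CPM with Doxy and 24.0, 22.4 and 22.2 without did not overlap. ICAM1 was at 24.9, 26.2 and 39.2 CPM with Doxy and at 32.8, 43.9 and 39.7 without (log2 fold change 0.36, edgeR adjusted p = 0.246). NFKB2 (0.25) and RELB (0.37) overlapped between the groups in the same way, with the highest library with Doxy being replicate 3, the library that stands apart. NFKB1 was at 60.8 ± 2.37 CPM with Doxy and 56.7 ± 1.87 without (SD, n = 3), RELA at 150 ± 31.9 and 152 ± 15.3, and REL at 2.76 ± 0.503 and 2.52 ± 0.404, and none of these passed the test.

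This count depended on single libraries. It was 1 (BIRC3) without 3% O2 + Doxy replicate 1 or without 3% O2 wo Doxy replicate 2, and 5 without 3% O2 + Doxy replicate 3, when NFKBIA and ICAM1 were added. Those fits called 3.76%, 3.72% and 9.27% of all tested genes. TNFAIP3 also lost its call without 3% O2 + Doxy replicate 2 or 3% O2 wo Doxy replicate 3. A fit to the 6 libraries compared called none of the 10 (BIRC3 edgeR adjusted p = 0.0539) and 1.36% of all genes. Without both libraries that stand apart, an alternative chosen after seeing the data, 7 of the 10 were called, all higher, namely the 3 above with NFKBIA (log2 fold change 0.38), ICAM1 (0.57), NFKB2 (0.43) and RELB (0.64), beside 19.3% of all tested genes.

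**Figure D2:**
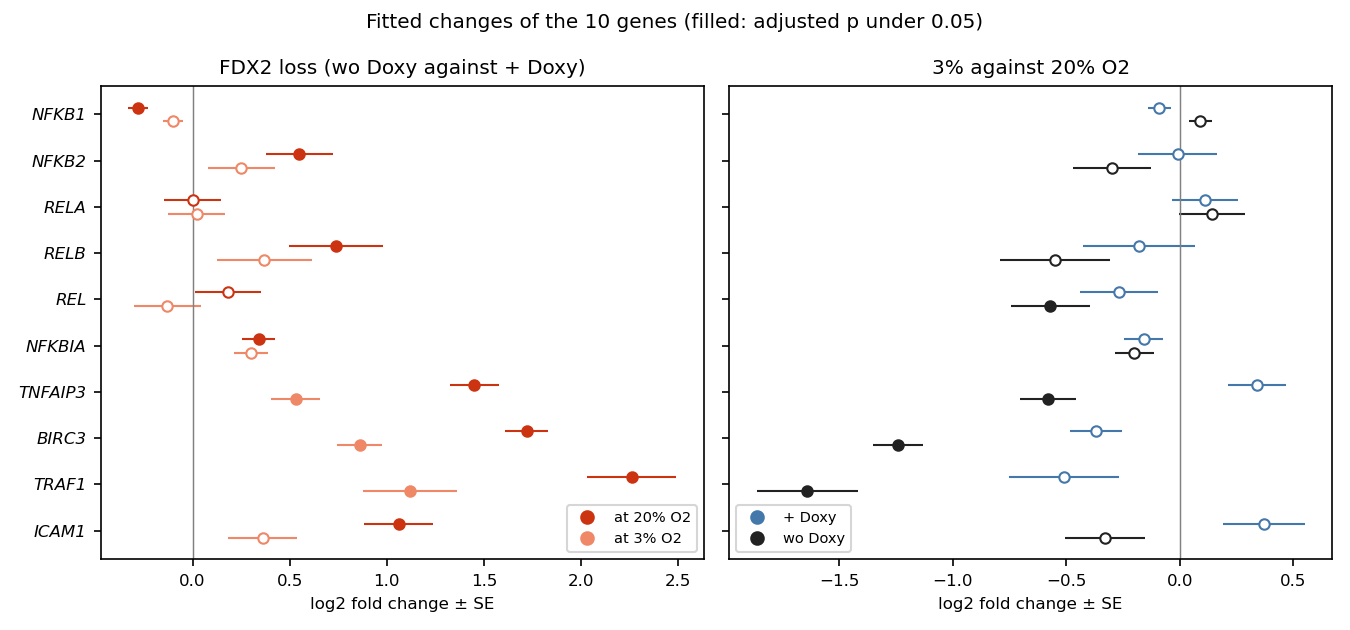
Log2 fold change with its SE (x axis) of each of the 10 genes (y axis), for FDX2 loss at 20% and 3% O2 on the left and for 3% against 20% O2 with and without Doxy on the right, with filled points for an adjusted p under 0.05. The increases of TRAF1, BIRC3 and TNFAIP3 are 2.26, 1.72 and 1.45 at 20% O2 and 1.12, 0.86 and 0.53 at 3% O2.

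Whether the response differed between oxygen levels was tested as an interaction, in which a negative value means a smaller response at 3% O2. BIRC3 (log2 difference −0.87, SE 0.16, edgeR adjusted p = 0.0094) and TNFAIP3 (−0.92, SE 0.178, edgeR adjusted p = 0.012) passed, both lower. Of all tested genes, 7.29% were called, 3.21% higher and 4.08% lower. TRAF1 had a larger difference of −1.13 with a larger error and did not pass (SE 0.332, edgeR adjusted p = 0.0662), nor did ICAM1 (−0.70, SE 0.25, edgeR adjusted p = 0.122). NFKBIA had a difference of −0.04 (SE 0.122, edgeR adjusted p = 0.871). TRAF1 passed without 3% O2 + Doxy replicate 1 (−1.33, edgeR adjusted p = 0.0433) and with the stricter filter (no library under 10 counts) (−1.16, edgeR adjusted p = 0.0398). ICAM1 passed with DESeq2's Wald test (−0.70, adjusted p = 0.044) and without both libraries that stand apart (−0.62, edgeR adjusted p = 0.0253).

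The GC correction changed this comparison most. It called 7 of the 10, with TRAF1 (−1.21), ICAM1 (−0.83), RELB (−0.77) and NFKB2 (−0.58) added as lower and NFKB1 (0.20) as higher, beside 16.5% of all tested genes. It also turned the balance of calls over all genes, from 542 higher and 689 lower to 1784 higher and 1000 lower.

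In the libraries labelled + Doxy, 3% against 20% O2 changed none of the 10 genes at the threshold (edgeR's quasi-likelihood test), and DESeq2's Wald test likewise called 0. At an unadjusted p under 0.05 there were 2, TNFAIP3 and BIRC3. The share of all tested genes at that looser threshold is not given, so this count is not read as a result about the 10 genes. At the adjusted threshold 2.02% of all tested genes were called, 1.63% higher and 0.385% lower, and 4.02% with DESeq2's Wald test. BIRC3 came nearest, with libraries that did not overlap between 20% O2 (lowest 7.16 CPM) and 3% O2 (highest 6.89 CPM), a log2 fold change of −0.37 and an edgeR adjusted p of 0.16. The next were TNFAIP3 (0.34, edgeR adjusted p = 0.265) and ICAM1 (0.37, edgeR adjusted p = 0.429), with overlapping libraries.

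In cells without Doxy, 3% against 20% O2 lowered 4 of the 10 genes, TRAF1 (log2 fold change −1.64, SE 0.224), BIRC3 (−1.24, SE 0.111), TNFAIP3 (−0.58, SE 0.124) and REL (−0.57, SE 0.173), with edgeR adjusted p of 0.000537, 3.61e-05, 0.00685 and 0.0328. Of all tested genes, 25.8% were called, 13.9% higher and 11.9% lower. The levels of TRAF1, BIRC3 and TNFAIP3 without Doxy were listed above, and those at 3% O2 were all below those at 20% O2. REL was at 3.88, 3.41 and 3.96 CPM at 20% O2 and at 2.17, 2.42 and 2.96 at 3% O2, again without overlap. The median over the 10 genes was −0.44, and over all tested genes 0.07. These values share their libraries with the comparisons of FDX2 loss, so they are not separate evidence.

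In this comparison ICAM1 (−0.33), NFKB2 (−0.30), RELB (−0.55) and NFKBIA (−0.20) did not pass (edgeR adjusted p = 0.189, 0.222, 0.116 and 0.102). Their libraries did not overlap between oxygen levels, in NFKB2 by a narrow gap (39.9 CPM at 20% O2, 39.7 at 3% O2). The share of all tested genes without overlap is not given, so this is not read as a result about these genes. Here the replicate numbers were taken to pair the libraries, by correlations in these same data and not by the labels. With the replicate number as a block in the fit to 12 libraries, REL lost its call (edgeR adjusted p = 0.0622) and 3 genes were called. With the block in a fit to the 6 libraries compared, 8 were called, all lower, with ICAM1, NFKB2, RELB and NFKBIA added. Of all genes in that fit 31.1% were called, against 25.8% in the main fit. The GC correction, with or without the block, called 7, leaving out REL (edgeR adjusted p = 0.054 without the block). It called 31.1% of all genes without the block and 27.7% with it. REL also lost its call without any 1 of the 3 libraries of 20% O2 wo Doxy, or without 3% O2 wo Doxy replicate 1 or 2 (edgeR adjusted p from 0.055 to 0.111).

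Within conditions, the 10 genes did not vary independently. The 5 members with a transcript GC content of at least 54% (NFKB2, RELA, RELB, TRAF1 and ICAM1) deviated from their condition means together. Their 10 pairs had Pearson correlations over 12 libraries of 0.551 to 0.984. This cut was not set in advance. NFKBIA, just below it at 53.1%, correlated with these 5 at 0.126 to 0.529, and NFKB1 (50.1%) at 0.088 to 0.39. TNFAIP3, with a GC content of 49.5%, below that of NFKBIA and NFKB1, correlated with the same 5 at 0.641 to 0.892. REL and BIRC3, the members with the lowest GC content (38.7% and 34.8%), correlated with each other at 0.842, and against the GC-rich 5 at −0.767 to −0.548. In 20% O2 + Doxy replicate 1 the log2 level of RELB was 0.38 above its condition mean and that of REL 0.13 below, and in 3% O2 + Doxy replicate 3 RELB was 0.52 above and REL 0.31 below. The points share library and base composition, and the part of either in the correlations was not tested.

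Across all 12 libraries the correlations among members had another pattern. BIRC3 and TRAF1 correlated at 0.946, TNFAIP3 and ICAM1 at 0.957 and NFKB2 and RELB at 0.956, while NFKB1 and TNFAIP3 stood at −0.903. Among the other genes averaging 5 CPM or more (10633 or 10634 of them), those most like BIRC3 were MALAT1 (0.990), CAMK2D (0.989) and RAB29 (0.987). Those most like TNFAIP3 were AFF3 and PSAP (both 0.988) and ALPK2 (0.980), and those most like TRAF1 were DUSP1 (0.984), SAMD4A (0.983) and MCC (0.980). ICAM1 was most like FTL (0.986), STAT2 (0.980) and HS1BP3 (0.979), and NFKBIA was most like TAP1 (0.959), UBAP1 (0.940) and CACHD1 (0.938). NFKB2 was most like LATS2 (0.986), CCNL2 (0.985) and IRS2 (0.982), and for RELB CCNL2 (0.964), DAGLB (0.957) and NFKB2 itself led. RELA was most like MED24 (0.987), MAN2B2 (0.979) and SCAMP4 (0.976), NFKB1 most like GPHN (0.970), CTPS1 (0.969) and TOR1A (0.968), and REL most like SYT14 (0.973), TMEM161B (0.966) and SGPP1 (0.957). These are descriptions over 12 libraries that include the 4 conditions and the GC trend.

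Other genes of the pathway were read from 6 lists of 82 genes, of which 81 were found (SOD2 was not matched) and 66 passed the filter. FDX2 loss at 20% O2 raised 20 of them and lowered 8, so 42.4% were called beside 35.3% of all tested genes. At 3% O2 it raised 7 and lowered 2, which is 13.6% beside 7.31%. The counts of single lists below are read against the same shares, and nothing is called particular to a list.

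Of the 4 ligands tested, the interleukin-1 genes were those called at 20% O2. IL1A was at 0.671, 0.761 and 0.764 CPM at 20% O2 + Doxy and at 4.78, 5.40 and 4.42 at 20% O2 wo Doxy, a log2 fold change of 2.73 (SE 0.168, edgeR adjusted p = 9.25e-07). IL1B was at 13.9 ± 0.893 CPM with Doxy and 45.8 ± 1.75 without it (SD, n = 3), and its log2 fold change was 1.72 (edgeR adjusted p = 6.32e-08). At 3% O2, IL1B rose by 0.67 on the log2 scale (edgeR adjusted p = 0.000388), and IL1A had a log2 fold change of 0.43 (edgeR adjusted p = 0.196). TNFSF12, named after its values were seen, had a larger value there that did not pass (0.87, SE 0.255, edgeR adjusted p = 0.0655). The responses of both were smaller at 3% O2, with differences of −2.30 for IL1A (edgeR adjusted p = 0.000512) and −1.05 for IL1B (edgeR adjusted p = 0.000241). TNF, the ligand the pathway is best known for, had at most 1 count in any library.

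Of the 22 receptors and adaptors, 17 were tested, and 3 rose and 2 fell at 20% O2, a called share of 29.4%, below that of all genes (35.3%). IRAK2 (log2 fold change 1.03) and IL1R1 (0.90), which act downstream of interleukin-1, rose with TRAF5 (0.46), and TRAF2 (−0.61) and TRAF3 (−0.32) fell. At 3% O2, TRAF5 (0.35) was the gene of this list that was called. Of the 11 kinases, MAP3K14 (NIK, the kinase of the alternative pathway) fell by 0.53 (edgeR adjusted p = 0.0223) and TAB1 by 0.43 at 20% O2, and TAB2 rose by 0.20. MAP3K14 was higher at 3% than at 20% O2 in cells without Doxy (log2 fold change 0.73, edgeR adjusted p = 0.0073), and did not pass for FDX2 loss at 3% O2 (−0.07, edgeR adjusted p = 0.833). The 1 kinase called for FDX2 loss at 3% O2 was MAP3K8, which was lower (−1.37, edgeR adjusted p = 0.0201). It had a mean of 0.516 CPM and 5 to 24 counts per library. Of the 5 other IkB proteins, NFKBIZ (0.23) was called at 20% O2 and none at 3% O2 (edgeR's quasi-likelihood test).

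Among the 10 ubiquitin editors tested, 5 rose and 2 fell at 20% O2 (beside 17.6% and 17.7% of all genes), with CYLD, a deubiquitinase that restrains the pathway, at a log2 fold change of 0.60 (edgeR adjusted p = 2.58e-05), TAX1BP1 at 0.43 and TNIP1, a partner of A20, at 0.39 (edgeR adjusted p = 0.0371), and with RNF31 at −0.39. At 3% O2, CYLD rose by 0.27 and OTULIN fell by 0.36. Among the 19 other NF-kB target genes tested, 8 rose and 2 fell at 20% O2, beside the same shares of all genes, led by VCAM1 (2.07), PTGS2 (1.65), CXCL8 (1.23) and CFLAR (0.69). The 4 that rose at 3% O2 were VCAM1 (1.17), GADD45B (0.54), CFLAR (0.50) and RIPK2 (0.23). CXCL8 encodes interleukin-8 and was at 127 ± 13.9, 299 ± 12.2, 97.9 ± 10.2 and 104 ± 7.13 CPM at 20% O2 + Doxy, 20% O2 wo Doxy, 3% O2 + Doxy and 3% O2 wo Doxy (SD, n = 3). Its response differed between oxygen levels (−1.15, edgeR adjusted p = 0.000927), as did those of PTGS2 (−1.34), VCAM1 (−0.90) and RIPK2 (−0.36).

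In cells without Doxy, 5 of the 66 were higher and 18 lower at 3% than at 20% O2, beside 13.9% and 11.9% of all genes. Lower were among others IL1A (−2.02), CXCL8 (−1.53), PTGS2 (−1.24), IL1R1 (−1.21), IL1B (−1.03) and VCAM1 (−0.87). In cells with Doxy, 1 was called, SDC4 (0.28, edgeR adjusted p = 0.0255). The median log2 fold change over the 66 was 0.13 for FDX2 loss at 20% O2, 0.10 at 3% O2, −0.02 for 3% against 20% O2 with Doxy, and −0.07 without Doxy.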

How the data were processed

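Poly(A) RNA of the 12 cultures was converted to cDNA with random hexamers, and both ends were read on a DNBSEQ-T7. The authors aligned reads to GRCh38 with STAR and deposited raw counts per gene from featureCounts, not normalized. Versions, annotation and strand setting are not given in the sources used here. Identifiers match GENCODE release 29.

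In R 4.3.3, edgeR 4.0.16 was used: filterByExpr (at least 10 counts, 15 in total) left 16891 of the 32966 genes with any count, TMM gave the scaling, and all 12 libraries entered 1 quasi-likelihood fit with a mean per condition (8 residual degrees of freedom, biological coefficient of variation 16.3%), with Benjamini-Hochberg adjustment over all tested genes and a threshold of 0.05. Alternatives were DESeq2 1.42.0's size factors and Wald test, other filters, a replicate block, smaller fits and, added after seeing the data, a lowess GC correction (span 0.3) and leaving out both libraries that stand apart. The code was tested on simulated data.

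No libraries of a condition were duplicates: the mean chi-square per gene between them was 2.55 to 39.7. P-values measure the spread between these libraries. Deviations of same-numbered libraries correlated at 0.249 to 0.409 between 20% O2 wo Doxy and 3% O2 wo Doxy (other numbers at most 0.0968), so the numbers were taken to pair these conditions by that check, not by the labels. Elsewhere at least 1 same-numbered pair fell below 0.1, and differently numbered libraries reached 0.824 (20% O2 + Doxy with 3% O2 + Doxy).

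The members and all lists were chosen with earlier results of these data known. Named genes are the 10 members, up to 4 called genes of each pathway list with the largest absolute log2 fold change and a mean of at least 1 CPM, and BIRC2, TNF, IL1A, IL1B, TNIP1 and MAP3K14. TRAF3, TNFSF12, MAP3K8 and the neighbours of ICAM1 were named outside this rule, after their values were seen. RPKM here is CPM per kilobase of the union of GENCODE exons. Of the cell type markers, 2 are not reported here.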

Additional observations from a re-analysis of the deposited data

Results flagged for a closer look

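The response to FDX2 loss differed between 3% and 20% O2 by a test of the difference itself in 2 of the 10 genes. The log2 difference was −0.92 for TNFAIP3, whose log2 fold change was 1.45 at 20% O2 and 0.53 at 3% O2. It was −0.87 for BIRC3, with 1.72 at 20% O2 and 0.86 at 3% O2. In both genes the 3 libraries without Doxy were above the 3 with Doxy at either oxygen level.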

How the results depend on the processing

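For FDX2 loss at 3% O2, the number of the 10 genes called was 3, and it was 0 in a fit to the libraries compared, 7 without both libraries that stand apart and 1 to 5 with any 1 library left out. In the same order, 7.31%, 1.36%, 19.3% and 3.35% to 9.27% of all genes were called. For 3% against 20% O2 without Doxy it was 4, and it was 7 in a fit to the libraries compared, 8 with the replicate block in that fit, and 7 after the GC correction with or without the replicate block. The shares of all genes called were 25.8%, 34.2% and 31.1%, and after the GC correction 27.7% with the block and 31.1% without it. For the difference of the responses it was 2, and it was 7 after the GC correction, 3 with TRAF1 added under the stricter filter or without 3% O2 + Doxy replicate 1, and 3 with ICAM1 added under DESeq2's Wald test or without both libraries that stand apart. In the same order, 7.29%, 16.5%, 8.72%, 4.13%, 13.5% and 14.5% of all genes were called. For FDX2 loss at 20% O2 it was 8, and 6 to 8 under each alternative, and for 3% against 20% O2 with Doxy it was 0 throughout. The shares of all genes called ran from 16.3% to 44.7% in the former comparison and from 0.698% to 5.51% in the latter. In the comparisons where the numbers were not taken to pair the libraries, the replicate block gave 6 of 10 for FDX2 loss at 20% O2 and 2 at 3% O2, and left the counts of the others as they were. With the block, 30.1% of all genes were called for FDX2 loss at 20% O2 and 4.0% at 3% O2. It called 1.29% of all genes for 3% against 20% O2 with Doxy and 3.64% for the difference of the responses. NFKB2 and RELB lost their calls at 20% O2 under the block (edgeR adjusted p = 0.0589 and 0.0659), TNFAIP3 lost its call at 3% O2 under the block (0.0651), and TRAF1 did so without a filter (0.0558). Some values near 0 changed sign, and none of them was called. RELA went to 0.01 under the stricter filter, 0.0035 in the fit to the libraries compared, 0.10 after the GC correction and without both libraries, and −0.10 to 0.13 with 1 library left out, for FDX2 loss at 20% O2. At 3% O2 it went to −0.01 without a filter and after the GC correction, −0.0019 with DESeq2 and −0.08 to 0.21 with 1 library left out. For 3% against 20% O2 with Doxy, leaving out 1 library gave −0.22 to 0.13 for NFKB2, −0.08 to 0.24 for RELA and −0.48 to 0.03 for RELB. RELA went to −0.05 after the GC correction without Doxy, and its difference of responses to −0.12, with −0.12 to 0.22 when 1 library was left out. The difference for NFKBIA went to 0.07 without both libraries and −0.10 to 0.08 with 1 left out. The cause was not tested. Leaving out both libraries was not run for 3% against 20% O2 without Doxy, which does not contain them. Low counts limit TRAF1 (at least 11 per library) and REL (at least 54).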
